A study of Homo sapiens with 4 samples.

Results

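The clustered protocadherins are neural cell adhesion genes that lie side by side in 3 clusters, alpha, beta and gamma, on the long arm of human chromosome 5. Members were found by symbol in the deposited transcript tables and kept if they had a protein-coding transcript, which gave 53 of 58174 genes: 15 of the alpha, 16 of the beta and 22 of the gamma cluster. All 53 lie on the plus strand between positions 140786136 and 141512981 of chromosome 5 (GRCh38, GENCODE 29 annotation), a stretch of 726.8 kb. The alpha genes span 140786136 to 141012347, the beta genes 141051135 to 141249365 and the gamma genes 141330571 to 141512981.

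Each alpha or gamma gene has its own large variable exon, which encodes the extracellular cadherin repeats, the membrane segment and a short tail, and its own promoter. That exon is spliced to 3 constant exons shared by the whole cluster. Beta genes consist mainly of their own exon and have no constant exons. In neurons, promoter choice through CTCF and cohesin gives each cell a different combination of isoforms, and matching isoforms bind each other across membranes, which lets a neuron recognise its own branches. The C-type genes (PCDHAC1, PCDHAC2, PCDHGC3, PCDHGC4 and PCDHGC5) sit at the ends of the alpha and gamma clusters and are known to be expressed less selectively than the others. In the annotation the alpha constant exons were at 140978949 to 140979007, 140982475 to 140982563 and 141009627 to 141012344. Those of the gamma cluster were at 141494807 to 141494865, 141505393 to 141505481 and 141510947 to 141512979.

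RNA was sequenced from Daoy, an established human cell line derived from a medulloblastoma, a tumour of the cerebellum. The libraries were 2 labelled wild type and 2 labelled EED-knockout, with no treatment, time or age given. EED is the H3K27me3-reading core component of PRC2, the Polycomb complex that deposits this repressive histone mark. The labels do not say how the knockout was made or whether the libraries of a genotype were separate clones or cultures, so p-values measure only how these 4 libraries spread, and that spread may be technical. Estimated counts per library ranged from 17836112 to 19106382. EED itself, at positions 86244544 to 86278813 of chromosome 11, had 34.4 and 27.6 CPM (counts scaled to library size) in the wild type and 17.9 and 26.1 CPM in the knockout libraries. The 2 groups did not overlap, the knockout being the lower, with a log2 fold change of -0.49 ± 0.27 (SE) and an adjusted p of 0.878 in edgeR's quasi-likelihood test. Of 14 markers of granule neuron progenitors, the cells from which sonic hedgehog medulloblastoma arises, 11 were expressed enough to test, and ATOH1 was at 0 counts in all 4 libraries. In bulk RNA, fewer cells expressing a gene and less RNA per cell cannot be told apart.

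Promoter sequences are shown because promoter choice sets which member is transcribed, and the sequences differ between clusters. RefSeq promoters (GRCh38.p14, 250 bases before to 50 after a start site) were matched by symbol for 47 of the 53 members. Where a member had a further start site (5 in all), the first along the chromosome was used. The core of the element that CTCF is known to bind at these promoters, CGCT, was present on either strand (reverse AGCG) in 46 of 47 promoters, against 70.0% of all 35116 promoters in the table, and PCDHA9 had no match in this window. The 9-letter word shared by the largest number of promoters in each cluster was then taken from these same sequences, so its count is a description. In the beta cluster it was GGTGGCGCT (reverse AGCGCCACC), in 13 of 14 promoters and in 0.501% of all promoters; PCDHB1 had no match. The alpha word was GATGTCGCT (reverse AGCGACATC), in 9 of 13 promoters and in 0.105% of all. For gamma it was GCGCCGCTG (reverse CAGCGGCGC), in 10 of 20 promoters and in 1.28% of all. No promoter of 1 cluster held the word of another, and each word contains the core, so the counts of core and word overlap. The windows below run 5′ to 3′ on the plus strand with the word in capitals. They are shown for expressed genes of each cluster that are described further on, and the word began 43 to 86 bases before the start site in alpha, 2 to 84 in beta and 44 to 99 in gamma promoters.
PCDHA4 (chr5:140806970-140807018): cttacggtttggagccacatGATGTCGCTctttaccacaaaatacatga
PCDHA6 (chr5:140827888-140827936): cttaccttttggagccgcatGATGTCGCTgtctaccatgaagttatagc
PCDHA10 (chr5:140855832-140855880): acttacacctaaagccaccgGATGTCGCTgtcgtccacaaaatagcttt
PCDHB2 (chr5:141094535-141094583): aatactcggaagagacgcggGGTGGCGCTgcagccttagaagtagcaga
PCDHB5 (chr5:141135170-141135218): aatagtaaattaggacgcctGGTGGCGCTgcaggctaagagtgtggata
PCDHB8 (chr5:141177768-141177816): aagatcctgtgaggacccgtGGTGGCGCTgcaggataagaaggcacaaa
PCDHB13 (chr5:141213856-141213904): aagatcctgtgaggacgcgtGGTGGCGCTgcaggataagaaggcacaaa
PCDHB16 (chr5:141182301-141182349): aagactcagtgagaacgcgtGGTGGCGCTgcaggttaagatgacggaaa
PCDHGB1 (chr5:141350017-141350065): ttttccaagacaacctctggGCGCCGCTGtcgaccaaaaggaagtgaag
PCDHGB6 (chr5:141407916-141407964): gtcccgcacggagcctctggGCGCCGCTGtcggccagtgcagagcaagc
PCDHGA11 (chr5:141420964-141421012): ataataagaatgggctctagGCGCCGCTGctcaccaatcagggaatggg

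A pair of gamma promoters without the cluster's word is shown over the 250 bases before the start site, with CGCT and AGCG in capitals, because PCDHGC3 held nearly the same level in all libraries while PCDHGA4 did not. The PCDHGC3 stretch held 6 such matches and the PCDHGA4 stretch held 1. This pair was picked after its values were seen. PCDHGA11, which was also steady, had 2 matches, and PCDHGB2, which was not, had 3. Whether the number of matches has a part in the levels was not tested.
PCDHGC3 (chr5:141475716-141475965): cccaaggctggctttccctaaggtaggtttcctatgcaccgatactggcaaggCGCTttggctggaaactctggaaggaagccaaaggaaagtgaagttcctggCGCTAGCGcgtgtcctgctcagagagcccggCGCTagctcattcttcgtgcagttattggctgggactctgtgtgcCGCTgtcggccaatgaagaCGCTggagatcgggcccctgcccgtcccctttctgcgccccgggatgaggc
PCDHGA4 (chr5:141354771-141355020): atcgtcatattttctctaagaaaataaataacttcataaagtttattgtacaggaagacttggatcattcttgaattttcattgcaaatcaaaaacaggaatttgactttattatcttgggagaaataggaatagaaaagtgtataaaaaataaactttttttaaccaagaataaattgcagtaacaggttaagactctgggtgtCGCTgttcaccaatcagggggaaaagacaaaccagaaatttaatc

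Daoy cells expressed members of all 3 clusters. Of the 53 genes, 49 had at least 1 count in every library, 37 reached a mean of 1 CPM and 18 a mean of 1 TPM (abundance per length of transcript, a scale on which genes can be compared). PCDHGC3, a C-type isoform expressed widely outside neurons too, stood above all others in TPM. It had 48.7 and 55.2 TPM in the wild type and 47.0 and 43.0 TPM in the knockout libraries. Next came PCDHGA11, with 10.5 and 9.86 TPM in the wild type and 11.5 and 9.03 TPM in the knockout libraries. PCDHB2 followed with 9.48 and 8.17 TPM in the wild type and 11.5 and 4.10 TPM in the knockout libraries, so its range overlapped that of PCDHGA11. PCDHB5 had 7.26 and 4.52 TPM in the wild type and 7.50 and 5.50 TPM in the knockout libraries and also overlapped PCDHB2. The highest alpha gene was PCDHA10, with 3.99 and 2.93 TPM in the wild type and 3.49 and 2.56 TPM in the knockout libraries. In this order the range of PCDHGC3 did not overlap that of PCDHGA11, and the range of PCDHB5 did not overlap that of PCDHA10. PCDHGC3 made up 61.4% (95% Wilson interval 59.7 to 63.0) and 67.3% (65.7 to 68.8) of all gamma counts in the wild type and 56.0% (54.4 to 57.6) and 69.0% (67.3 to 70.7) in the knockout libraries. These intervals cover counting error only; the 2 libraries of each genotype differed by more than that, and the genotypes overlapped.

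**Figure D1:**
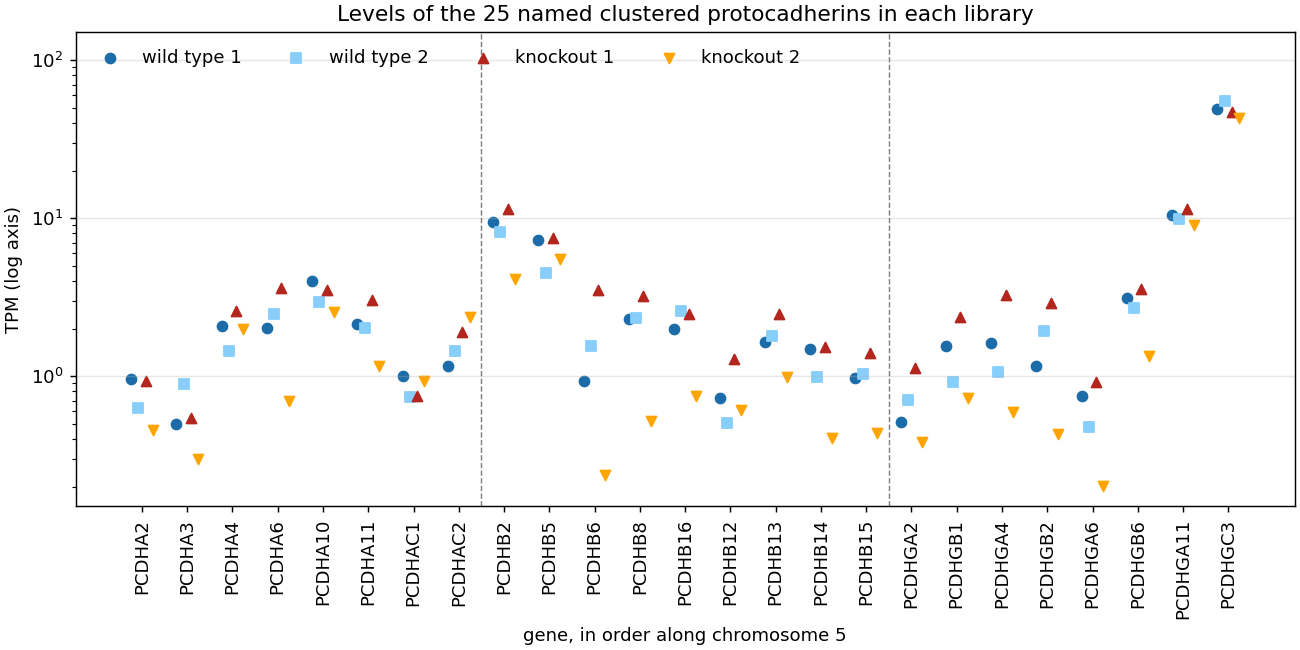
TPM on a log axis of the 25 members with the highest mean CPM, in order along chromosome 5; each symbol is 1 library and dashed lines separate the alpha, beta and gamma clusters. PCDHGC3 lies between 43.0 and 55.2 TPM in all libraries, and many beta and gamma genes have their lowest value in knockout 2.

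No clustered protocadherin passed the test between genotypes. At a count high enough to test were 45 members, 13 alpha, 16 beta and 16 gamma, and 0 of them were called by edgeR at an adjusted p of 0.05, against 0.0% of all 18349 genes tested. The smallest p among members was 0.119 before adjustment and 0.881 after, both for PCDHGA7 (PCDHA3 had the same adjusted p), and 0 members had an unadjusted p under 0.05, against 5.9% of all genes. DESeq2 called 0 members as well, against 0.4% of the 19728 genes to which it gave an adjusted p; 6 members got none. In no member were both knockout libraries above both wild type libraries, against 17.9% of all genes, and in 3 members (PCDHA3, PCDHAC2 and PCDHGC3) both were below, against 18.0%. The median log2 fold change of the 45 was -0.18, with 15 above 0, and that of all genes was 0.01. With 2 libraries in each group the 95% interval of a single member was wide: the median standard error was 0.59 on the log2 scale for members and 0.30 for all genes.

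**Figure D2:**
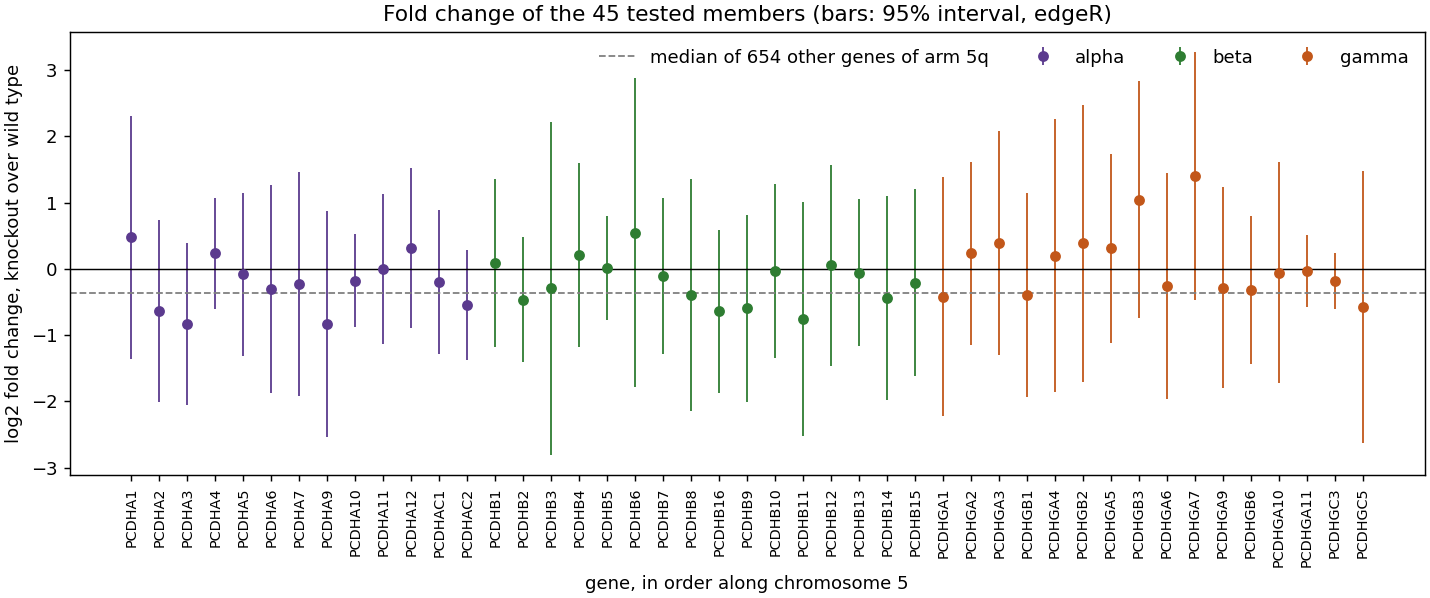
Log2 fold change of knockout over wild type with its 95% interval from edgeR for the 45 tested members, in order along chromosome 5, coloured by cluster; the dashed line is the median of 654 other tested genes of the same chromosome arm. Every interval includes 0.

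Summed by cluster, the genotypes were not separated either, and the widest spread was within the knockout. Alpha genes together reached 62.1 and 50.3 CPM in the wild type and 63.9 and 37.2 CPM in the knockout libraries. Beta genes reached 81.0 and 66.3 CPM in the wild type and 86.8 and 39.0 CPM in the knockout libraries. Gamma genes reached 191.7 and 187.3 CPM in the wild type and 196.6 and 150.8 CPM in the knockout libraries. In each cluster the highest and the lowest library were both knockout libraries, so the genotypes overlapped. The log2 ratio of knockout to wild type means was -0.15 for alpha, -0.23 for beta and -0.13 for gamma. An exact permutation test of 2 against 2 libraries cannot give a two-sided p below 0.333, and none is given for the sums.

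Summed over the 5 C-type genes the knockout libraries were close, and summed over the other 48 members they were not. C-type genes summed to 126.4 and 134.5 CPM in the wild type and 116.0 and 111.4 CPM in the knockout libraries. The other members summed to 208.4 and 169.3 CPM in the wild type and 231.3 and 115.6 CPM in the knockout libraries. Knockout 1 thus stood 2.00-fold above knockout 2 over the other members and 1.04-fold above it over the C-type genes, while wild type 1 stood 1.23-fold above wild type 2 over the other members. PCDHGC3 supplies most C-type counts, and without it the gamma cluster summed to 74.1, 61.2, 86.5 and 46.7 CPM in wild type 1, wild type 2, knockout 1 and knockout 2. Among the other members PCDHGA11, PCDHB2, PCDHB5 and PCDHA10 had the highest mean CPM. In these, knockout 1 stood 1.265-fold, 2.30-fold, 1.28-fold and 1.46-fold above knockout 2. Whether C-type class or abundance has a part was not tested. With 1 library on each side, the difference between the knockout libraries has no test.

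**Figure D3:**
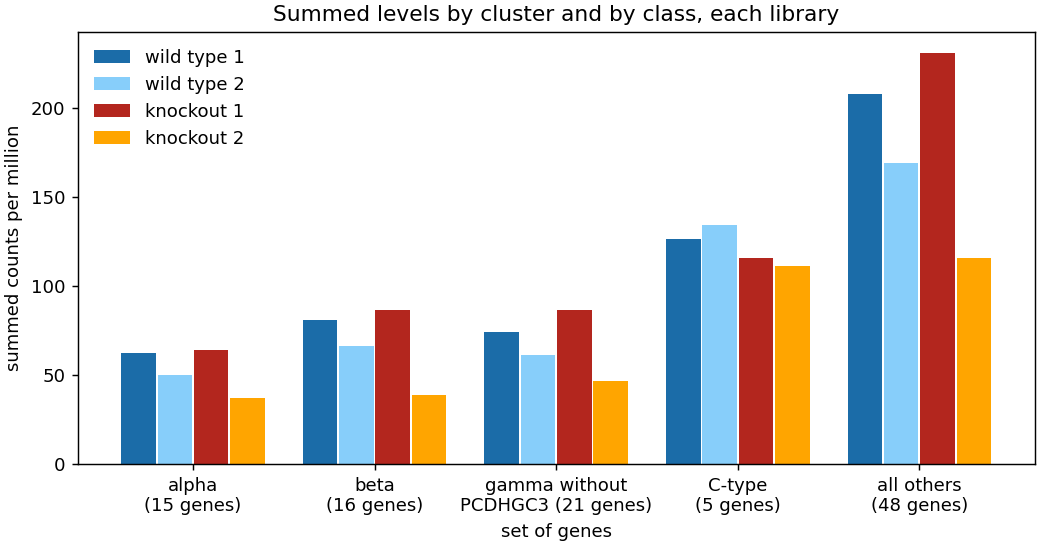
Summed CPM of alpha, beta and gamma genes (gamma without PCDHGC3), of the 5 C-type genes and of the other 48 members, with 1 bar for each library. The bars of the other members run from 115.6 in knockout 2 to 231.3 in knockout 1, while the C-type bars run from 111.4 to 134.5.

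Among the alpha genes, PCDHA10 was the most abundant and PCDHA4, PCDHA6 and PCDHA11 came next; all are ordinary alternate isoforms. PCDHA10 had 311 and 235 counts in the wild type and 300 and 203 in the knockout libraries (log2 fold change -0.18 ± 0.30, SE). PCDHA4 had 158 and 102 counts in the wild type and 185 and 134 in the knockout libraries (log2 fold change 0.24 ± 0.35). In both genes the genotypes overlapped. PCDHA6 had 129 and 147 counts in the wild type libraries, 196 in knockout 1 and 38 in knockout 2, the largest gap of a named alpha gene. PCDHA11 had 151 and 97 counts in the wild type, 182 in knockout 1 and 76 in knockout 2. Its fitted log2 fold change was 0.00 ± 0.48, with knockout 1 and knockout 2 on either side of the wild type pair. PCDHA2 (48, 28, 35 and 16 counts in wild type 1, wild type 2, knockout 1 and knockout 2) and PCDHA3 (33, 54, 31 and 20 counts) were near the lower end of the named genes.

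PCDHAC1 and PCDHAC2 are the C-type genes of the alpha cluster. PCDHAC1 had 59 and 37 counts in the wild type and 39 and 48 in the knockout libraries. PCDHAC2 had 95 and 94 counts in the wild type and 67 and 68 in the knockout libraries, so its groups did not overlap in counts. Its log2 fold change was -0.54 ± 0.35 (SE), with an adjusted p of 0.887 in edgeR. In TPM the order was the opposite, with 1.16 and 1.45 TPM in the wild type and 1.90 and 2.38 TPM in the knockout libraries. The main form with constant exons, PCDHAC2-001, had 94.7 and 81.2 against 47.7 and 54.7 counts. PCDHAC2-002, a form of 1 exon, had 0 and 13.2 against 16.3 and 7.46 counts. A minor transcript of 550 bases, PCDHAC2-003, chosen after its values were seen, was at 0 counts in the wild type and at 3.35 and 5.60 counts in the knockout libraries. TPM divides by length and so gives a short transcript more weight than its counts. Which direction PCDHAC2 took therefore depended on the unit.

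The 5 tested alpha genes not named here had means between 0.891 and 1.58 CPM and log2 fold changes between -0.83 and 0.48. PCDHA8 and PCDHA13 were too low to test. PCDHA13 had 16 counts in knockout 1, 2 in wild type 2 and 0 in wild type 1 and knockout 2, where a count of 0 allows up to 0.157 and 0.165 CPM (3 counts of the total).

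Beta genes were led by PCDHB2 and PCDHB5, adhesion isoforms encoded mainly by a single exon. PCDHB2 had 434 and 343 counts in the wild type libraries, 411 in knockout 1 and 176 in knockout 2, with a log2 fold change of -0.46 ± 0.40 (SE). PCDHB5 had 331 and 189 counts in the wild type and 308 and 238 in the knockout libraries (log2 fold change 0.01 ± 0.33). PCDHB2 was thus lowest in knockout 2, whereas both PCDHB5 values of the knockout lay inside the wild type range.

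The other 7 named beta genes all had their highest or second highest count in knockout 1, and 6 of them were lowest in knockout 2 on both scales. PCDHB6 had 41 and 63 counts in the wild type libraries, 149 in knockout 1 and 10 in knockout 2, and in CPM knockout 1 was 14.7-fold above knockout 2. PCDHB8 had 86 and 80 counts in the wild type, 114 in knockout 1 and 18 in knockout 2, a 6.24-fold gap in CPM. PCDHB16 had 133 and 148 counts in the wild type, 142 in knockout 1 and 46 in knockout 2. In PCDHB8 and PCDHB16 the wild type pair was close together and the knockout pair far apart. PCDHB13 had 112 and 111 counts in the wild type, 160 in knockout 1 and 63 in knockout 2. PCDHB14 had 95 and 49 counts in the wild type, 87 in knockout 1 and 24 in knockout 2, and PCDHB15 had 53 and 51, 72 and 22. Their log2 fold changes between genotypes ranged from -0.64 ± 0.52 (PCDHB16) to 0.55 ± 0.99 (PCDHB6), and the edgeR adjusted p of PCDHB6 was 0.964. Fragments that fit several similar beta genes are shared out by kallisto's model, so values of single genes are less certain than the cluster sum. The constant exons shared within the alpha and within the gamma cluster put single genes there under the same limit.

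PCDHB12 had 37 and 23 counts in the wild type, 49 in knockout 1 and 16 in knockout 2, and its transcripts parted. The single-exon form PCDHB12-001 had 37.0 and 23.2 counts in the wild type and 34.8 and 1.70 in the knockout libraries. A 2-exon form of 1963 bases, PCDHB12-002, was at 0 counts in wild type 1 and wild type 2 and at 14.0 and 14.3 counts in the knockout libraries. It was the 1 member transcript under the 0.05 line before adjustment, with an unadjusted edgeR p of 0.0165 (adjusted p 0.832). With 0 counts in both wild type libraries its fold change had no finite estimate. The split of counts between these forms is itself estimated by kallisto. The 7 unnamed beta genes had means between 0.499 and 1.65 CPM and log2 fold changes between -0.76 and 0.21.

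In the gamma cluster PCDHGC3 carried most of the RNA and was steady. It had 2141 and 2285 counts in the wild type and 2095 and 1953 in the knockout libraries. The groups did not overlap, the knockout being lower, with a log2 fold change of -0.19 ± 0.18 (SE), a 95% interval from -0.61 to 0.24 and an adjusted p of 0.927 in edgeR. PCDHGA11, of the A subfamily, had 664 and 541 counts in the wild type and 688 and 536 in the knockout libraries (log2 fold change -0.03 ± 0.23). These 2 genes had the narrowest intervals of all members.

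The A and B subfamily genes further upstream had lower and more variable levels. PCDHGB6 had 198 and 157 counts in the wild type, 217 in knockout 1 and 80 in knockout 2. PCDHGA4 had 111 and 59 counts in the wild type, 184 in knockout 1 and 20 in knockout 2, a 9.07-fold gap in CPM between the knockout libraries. PCDHGB2 had 40 and 67 counts in the wild type, 132 in knockout 1 and 14 in knockout 2, a 9.29-fold gap. PCDHGB1 (94, 54, 93 and 24 counts in wild type 1, wild type 2, knockout 1 and knockout 2), PCDHGA6 (56, 31, 62 and 14) and PCDHGA2 (33, 42, 68 and 24) were lowest in knockout 2 too. Log2 fold changes between genotypes ran from -0.40 ± 0.65 (PCDHGB1) to 0.38 ± 0.88 (PCDHGB2). Leaving out knockout 1 turned PCDHGA4 to -2.13 and PCDHGB2 to -1.97 on the log2 scale, and PCDHB6 of the beta cluster to -2.42, so the sign of these 3 estimates rested on that library.

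The 8 unnamed gamma genes that were tested had means between 0.529 and 1.45 CPM and log2 fold changes between -0.58 and 1.40. The upper end was PCDHGA7, singled out after its values were seen, with 18 and 11 counts in the wild type, 66 in knockout 1 and 14 in knockout 2. Too low to test were PCDHGB4, PCDHGA8, PCDHGB5, PCDHGB7, PCDHGA12 and PCDHGC4, with at most 13 counts in any library. In PCDHGB5 (4 and 13 counts in the wild type, 3 and 0 in the knockout libraries) and PCDHGB7 (5 and 13, 4 and 4) the knockout was the lower in both libraries. PCDHGC4, the C-type isoform known for its need in neuronal survival, had 0 and 4 counts in the wild type and 2 and 9 in the knockout libraries.

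Knockout 2 stood below knockout 1 in the median of each cluster, but in alpha genes the wild type pair lay as far apart as the knockout pair. Knockout 2 was the lowest library in 28 of 45 tested members (62.2%), against 25.8% of all tested genes. By cluster these were 7 of 13 alpha, 12 of 16 beta and 9 of 16 gamma genes. Knockout 1 was the highest library in 20 of 45 members (44.4%), against 31.2% of all genes. Both held in 17 of 45 members (37.8%), against 11.6% of all genes. In CPM, knockout 1 was at least 2-fold above knockout 2 in 22 of 45 members and the reverse held in 3, while over all genes these shares were 8.22% and 7.44%. Between the wild type libraries wild type 1 was at least 2-fold above wild type 2 in 4 members and the reverse held in 2, against 2.57% and 7.65% of all genes. The median difference in log2 CPM of knockout 2 less knockout 1 was -0.56 for alpha, -1.24 for beta and -1.09 for gamma genes, against 0.00 for all genes. Wild type 2 less wild type 1 gave a median of -0.39 for alpha, -0.07 for beta and -0.35 for gamma genes. It was -0.32 over members and 0.00 over all genes. Regardless of sign, the median difference of the knockout pair was 0.56 for alpha, 1.24 for beta and 1.39 for gamma genes. That of the wild type pair was 0.64, 0.52 and 0.56. The members share 2 libraries and neighbouring promoters and are not replicates of each other, so these counts describe the libraries and carry no test. Over all genes the knockout pair was also the more variable one, with a biological coefficient of variation of 0.332 against 0.205 for the wild type pair.

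**Figure D4:**
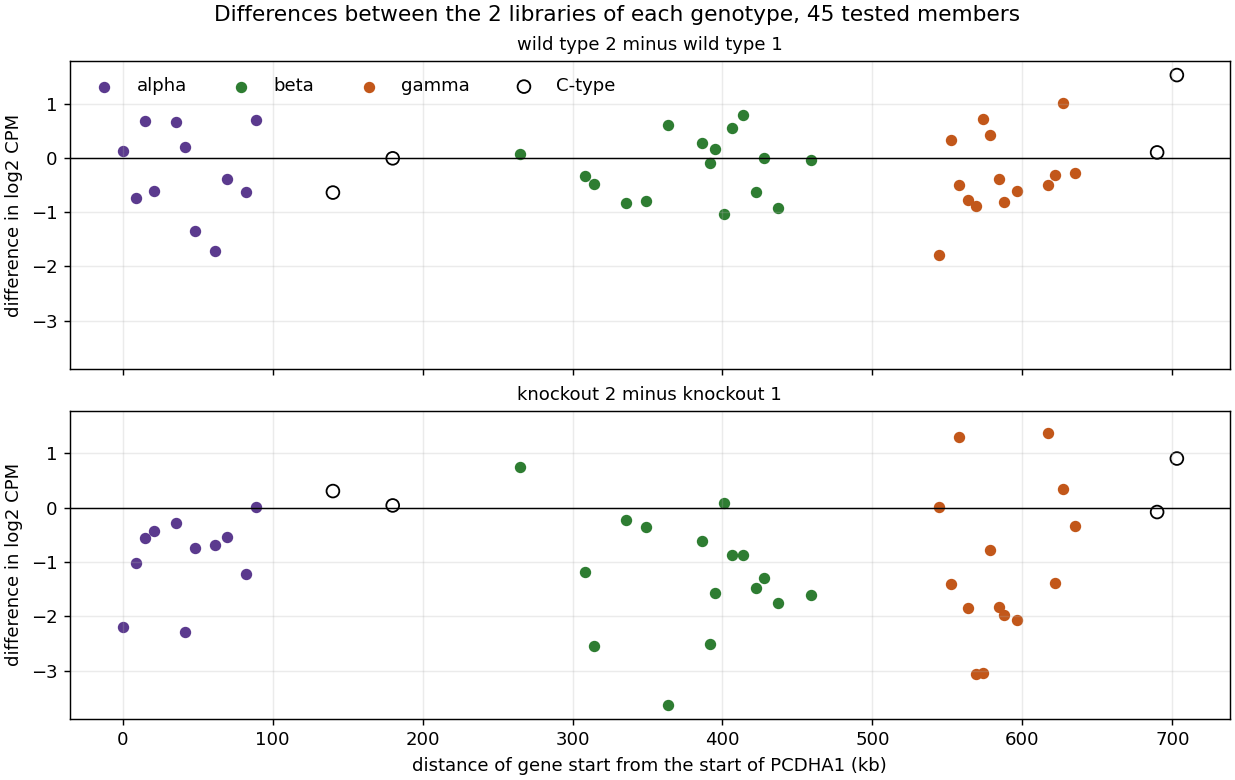
Difference in log2 CPM between the 2 libraries of each genotype for the 45 tested members, plotted by the distance of the gene start from the start of PCDHA1 in kb; open circles are C-type genes. In the lower panel most beta and gamma points lie below 0, with medians of -1.24 and -1.09, while the upper panel scatters around a member median of -0.32.

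Other genes of the same chromosome arm moved in another way. Over 654 tested genes of arm 5q outside the clusters, the median deviation from the wild type mean was -0.43 in knockout 1 and -0.28 in knockout 2 on the log2 scale. Over the 45 members it was 0.27 in knockout 1 and -0.51 in knockout 2. Knockout 1 thus had the lowest median for the arm and the highest for the protocadherins. The median log2 fold change between genotypes was -0.36 for the arm outside the clusters and -0.18 for the members, and with the arm's median taken as each library's baseline the members' median became 0.22, with PCDHGC3 at 0.18. Which sign the members take therefore depends on whether they are read against the genome or against their own arm; the part of the arm in the result was not tested beyond this offset.

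**Figure D5:**
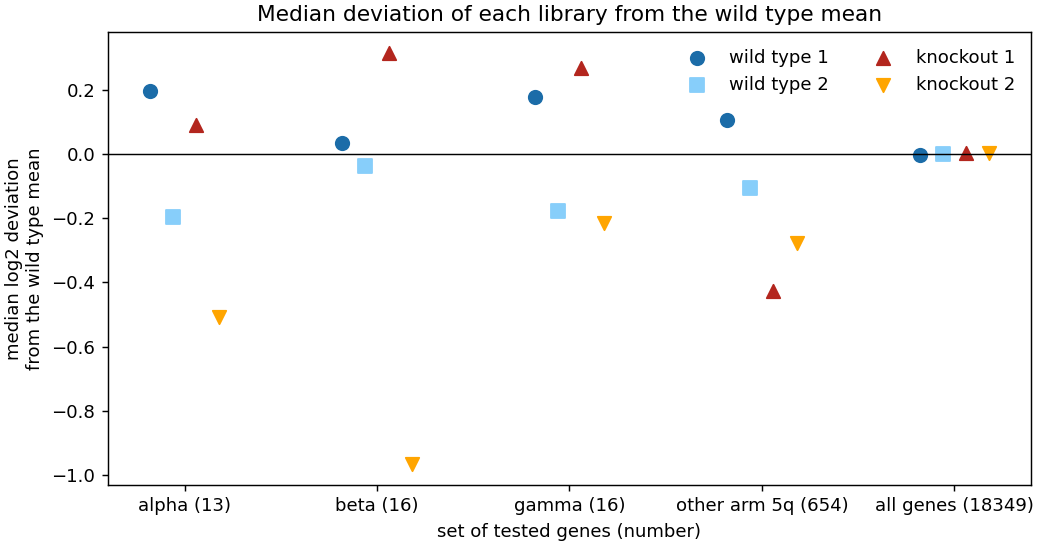
Median log2 deviation of each library from the wild type mean for tested alpha, beta and gamma genes, for 654 other genes of arm 5q and for all tested genes. Knockout 1 has the highest beta median and the lowest arm median (-0.43), and knockout 2 is lowest in all 3 clusters.

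Of 29 listed genes flanking the clusters, 27 were tested and 0 were called by edgeR, against 0.0% of all genes. Of the 27, 3 had a log2 fold change above 0 and the median was -0.32. An unadjusted edgeR p under 0.05 was found for 4 (NDUFA2, HDAC3, GNPDA1 and RNF14), all lower, against 5.9% of all genes. In 15 of the 27 both knockout libraries were below both of the wild type, against 18.0% of all genes, and in 2, CD14 and HBEGF, knockout 1 was the highest library and knockout 2 the lowest, against 11.6%. HBEGF, a growth factor gene singled out after its values were seen, had 34.1 and 27.9 CPM in the wild type, 42.5 in knockout 1 and 18.6 in knockout 2. TAF7, a subunit of the general transcription factor TFIID that lies between the beta and gamma clusters on the minus strand, had 2653 and 2150 counts in the wild type and 2034 and 1585 in the knockout libraries (log2 fold change -0.47 ± 0.21, edgeR adjusted p 0.855). DIAPH1, an actin-nucleating formin just beyond the gamma cluster, had 5260 and 4774 against 3781 and 4546 counts (-0.32 ± 0.20). HDAC3, a histone deacetylase, had 1329 and 1110 against 905 and 880 counts (-0.51 ± 0.19, adjusted p 0.808). In all 3 both knockout libraries were below both wild type libraries. From knockout 1 to knockout 2, TAF7 was lower, DIAPH1 was higher and HDAC3 was nearly equal (47.6 and 46.9 CPM). Of the 27 tested genes, 14 were higher in knockout 1 than in knockout 2 and 13 the reverse.

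Transcripts that reach the constant exons carried most counts of both alpha and gamma genes. In the alpha cluster their share was 69.5% and 59.9% in the wild type and 56.6% and 55.9% in the knockout libraries, the rest being annotated forms that end within the variable region. In the gamma cluster the share was 81.7% and 79.1% in the wild type and 79.3% and 81.4% in the knockout libraries. The alpha shares did not overlap between genotypes and the gamma shares did; wild type 2 lay closer to either knockout library than to wild type 1 in the alpha share. PCDHGC3 was mainly PCDHGC3-001, a 4-exon form of 4725 bases with 1199 and 1366 counts in the wild type and 1290 and 1264 in the knockout libraries. Its shorter 4-exon form PCDHGC3-002 had 614 and 587 counts in the wild type and 495 and 397 in the knockout libraries (log2 fold change -0.49 ± 0.22, SE). PCDHA10-001, also a 4-exon form, had 84.6 and 66.2 counts in the wild type and 27.3 and 38.3 in the knockout libraries (log2 fold change -1.27 ± 0.48). It held 20.6% of its gene's counts. The 4-exon form PCDHA10-002, with 36.3%, went the other way, with 121.6 and 39.9 against 140.9 and 78.6 counts (0.38 ± 0.69). The 1-exon form PCDHA10-003, with 43.1%, had 105.0 and 129.2 against 131.3 and 86.2 counts (-0.17 ± 0.39). PCDHGA4-001 had 111.1 and 51.8 counts in the wild type, 155.8 in knockout 1 and 0 in knockout 2. Of 127 member transcripts 73 were tested and 0 called by edgeR, against 0.0% of all 56858 transcripts. The 1 with an unadjusted p under 0.05 compares with 4.64% of all transcripts. Kallisto divides fragments between forms that share an exon by a model, so a 0 for one form can be a failed estimate.

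Among the other protocadherins and the genes that read, silence or process the clusters, edgeR called 0, against 0.0% of all 18349 genes tested. With 0 genes called anywhere, 0 calls in a list say little about that list. The other protocadherins, which lie outside the clusters, had 6 of 13 genes tested, 0 called and a median log2 fold change of -0.03. PCDH10, a delta protocadherin, had 25 and 52 counts in the wild type and 65 and 73 in the knockout libraries (0.78 ± 0.49). PCDH1 had 37 and 50 against 35 and 77 counts, and PCDH9 had 24 and 17 against 11 and 42. PCDH12, an endothelial protocadherin, had 23 and 34 against 19 and 27 counts, PCDH18 had 26 and 41 against 27 and 27, and PCDH7 was too low to test with at most 10. PCDH19, singled out after its values were seen, had 16 and 19 against 4 and 9 counts (-1.48 ± 0.70). Of the 6 tested genes PCDH10 was higher and PCDH19 lower in both knockout libraries, against 17.9% and 18.0% of all genes. In CPM all 6 were higher in knockout 2 than in knockout 1, PCDH18 only barely (1.44 and 1.42 CPM). Of these, 2 (PCDH1 and PCDH9) were highest in knockout 2 and lowest in knockout 1.

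CTCF and cohesin genes, which set promoter contacts at the clusters, were all 11 tested, with 0 called and a median of 0.13. CTCF had 88.2 and 76.3 CPM in the wild type and 93.0 and 89.9 CPM in the knockout libraries (0.15 ± 0.19), so it was slightly higher in both. RAD21, the cohesin ring's kleisin subunit, had 419.0 and 363.1 CPM in the wild type and 344.1 and 288.3 CPM in the knockout libraries (-0.31 ± 0.20). Of the 11 genes, 3 (CTCF, STAG1 and MAU2) were higher in both knockout libraries, against 17.9% of all genes. Lower in both was 1 (RAD21), against 18.0%. Among 12 genes that silence the clusters by DNA methylation, H3K9 methylation or SMCHD1, 0 were called and the median was 0.09. Only LRIF1, a partner of SMCHD1, had an unadjusted edgeR p under 0.05, against 5.9% of all genes. It was lower, at 0.0427 (adjusted p 0.834). SMCHD1 had 68.3 and 65.9 CPM in the wild type and 85.8 and 55.5 CPM in the knockout libraries. DNMT3B, a de novo DNA methyltransferase, had 17.8 and 17.2 CPM in the wild type, 10.4 in knockout 1 and 23.6 in knockout 2. SETDB1, an H3K9 methyltransferase, had 61.9 and 66.2 CPM in the wild type, 51.8 in knockout 1 and 79.6 in knockout 2. Of the 12 genes, 3 (SMCHD1, TRIM28 and MPHOSPH8) were highest in knockout 1 and lowest in knockout 2, and 3 (DNMT3B, SETDB1 and ZBTB24) had the reverse order. Their part in the members' difference was not tested.

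Of 19 genes for cleavage of protocadherins and their cytoplasmic partners, 0 were called, 6 had a log2 fold change above 0 and the median was -0.18. ADAM10, the protease that sheds protocadherin ectodomains, had 147.9 and 153.5 CPM in the wild type and 199.7 and 136.8 CPM in the knockout libraries. PSENEN, a protease cofactor, was the only gene of this list with an unadjusted edgeR p under 0.05, against 5.9% of all genes. It was lower, at 0.0414 (adjusted p 0.829). The knockout libraries also differed in some lists of markers of other cell types. Over 6 endothelial markers the summed level was 15.2 and 20.6 CPM in the wild type, 121.7 in knockout 1 and 4.43 in knockout 2, of which KDR alone gave 93.7 CPM in knockout 1. Over 10 neuronal markers it was 198.8 and 173.7 CPM in the wild type, 171.6 in knockout 1 and 212.9 in knockout 2, and TUBB3 alone gave 128.4, 89.3, 97.6 and 133.8 CPM of it. Without TUBB3 the neuronal sum was 70.4 and 84.4 CPM in the wild type and 74.0 and 79.2 CPM in the knockout libraries. Over 7 fibroblast and mesenchyme markers, all tested, the sum was 2519 and 3755 CPM in the wild type, 4050 in knockout 1 and 3412 in knockout 2. COL1A1, a collagen gene, gave most of it, and without it the sum was 598.3 and 921.5 CPM in the wild type, 1145 in knockout 1 and 392.4 in knockout 2. Knockout 1 was above knockout 2 in 6 of these 7 genes. Over 6 epithelial markers the sum was 544.2 and 759.2 CPM in the wild type, 621.4 in knockout 1 and 632.0 in knockout 2. Without KRT18 it was 80.15 and 175.1 CPM in the wild type, 58.65 in knockout 1 and 157.3 in knockout 2. Over 7 neural stem and glia markers, most of it VIM, it was 4345 and 3771 against 4128 and 4086 CPM. Of 11 tested granule neuron progenitor markers, 5 were higher in knockout 1 and 6 in knockout 2. In 6 of them (ZIC4, PAX6, MEIS1, GLI1, GLI2 and BOC) both knockout libraries were above both wild type libraries, against 17.9% of all genes. In 0 were both below, against 18.0%. Between genotypes, 9 had a log2 fold change above 0, with a median of 0.35. An unadjusted edgeR p under 0.05, against 5.9% of all genes, was found for GLI1 here, MAP2 among neuronal and KDR among endothelial markers. Each was higher in the fit, KDR through knockout 1 only, and not called. Whether any of these lists has a part in the protocadherin differences was not tested.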

How the data were processed

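The RNA of 4 libraries was quantified by the authors with kallisto 0.43.1 against hg38, per the submitters' processing notes; RNA was TRIZOL extracted and column cleaned, per the labels' protocols. The files hold the authors' estimated counts per transcript and TPM values, per the file headers; strand and annotation release: not given in the sources used here. Estimated counts of 199324 transcripts were summed over 58174 genes and rounded. Library totals (17836112 to 19106382) put 3 counts at 0.157 to 0.168 CPM.

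Genotypes were compared with edgeR 4.0.16 (R 4.3.3): quasi-likelihood test, TMM factors, filterByExpr (minimum count 10, minimum total 15), no covariate, Benjamini-Hochberg adjustment over all 18349 genes, threshold 0.05, two-sided. Log2 CPM used a prior count of 2. Alternatives were DESeq2 1.42.0, limma 3.58.1 (voom; trend on log2 of TPM plus 1 or 0.1), other size factors and filters, coding transcripts only, a replicate block, each library left out, and a baseline from arm 5q (434 genes above a mean log2 CPM of 3). Named members are the 25 with the highest mean CPM among those with at least 1, and other genes named come from lists or are pointed out beside their values. Named transcripts have at least 10% of their gene's counts, except PCDHAC2-003 (2.76%), which was chosen after its values were seen. A further gene, fixed by name outside the clusters, is not reported here. Members and lists were chosen with earlier results of these data known. The fits were tested on simulated data.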

Additional observations from a re-analysis of the deposited data

How the results depend on the processing

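Under 16 alternatives no clustered protocadherin was called. Over all genes edgeR called 0, DESeq2 called 79 (35 higher, 44 lower) and leaving out 1 library called 0 to 95: 0 and 4 on dropping wild type 1 or 2, and 92 and 95 on dropping knockout 1 or 2. For transcripts DESeq2 called 523 against 0 with edgeR, none of a member. The replicate block called 0 genes, and so did the crossed pairing of the replicate numbers, added after seeing the data; same-numbered libraries had a correlation of deviations of -0.245. The block changed no call. With the arm 5q baseline the gamma sum moved from -0.13 to 0.24 and PCDHGC3 turned to 0.18. On log2(TPM + 1) and log2(TPM + 0.1) PCDHAC2 turned to 0.45 and 0.68. With 1 library left out, the log2 fold change ranged from -2.13 to 1.05 for PCDHGA4, from -2.42 to 1.45 for PCDHB6 and from -1.97 to 1.24 for PCDHGB2, lowest without knockout 1 in each. The median of all tested members ranged from -0.68 without knockout 1 to 0.21 without knockout 2. The sign changed in 12 of 25 named members without knockout 2, in 12 with the arm baseline and in 1 with a GC and length correction, also added after seeing the data; 3 of 25 kept their sign under all alternatives. The cause of these shifts was not tested. With a library left out, the remaining 1 of its genotype was taken to vary as the other pair did.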

Other observations

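Between the first and the last member the annotation places 31 other genes, of which 5 were expressed enough to test. The pseudogene PCDHB17P, between PCDHB6 and PCDHB7, had 45 and 65 counts in the wild type libraries, 138 in knockout 1 and 27 in knockout 2, the same order as its neighbour PCDHB6. PCDHB18P had 13 and 5 counts in the wild type, 30 in knockout 1 and 14 in knockout 2. PCDHA14, which matched the naming rule without a coding transcript, had 12 and 0 counts in the wild type and 0 and 17 in the knockout libraries. SLC25A2, a coding gene between the beta and gamma clusters, had 1 count in knockout 2 and 0 in the others.

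Some endothelial genes outside the clusters separated the knockout libraries further than any member did. KDR had 34 and 16 counts in the wild type, 1782 in knockout 1 and 7 in knockout 2. TEK had 193 and 204 counts in the wild type, 286 in knockout 1 and 1 in knockout 2, and CDH5 had 3 and 6, 42 and 1. These genes were picked after their values were seen. KDR and TEK were tested and not called by edgeR, and CDH5 was too low to test. Of the same marker list, PECAM1 had 11 and 68 counts in the wild type, 28 in knockout 1 and 12 in knockout 2. VWF had 13 and 8, 8 and 2, so both were highest in a wild type library.

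With 2 libraries a genotype and no record of clones, a difference between knockout libraries cannot be told apart from one between cultures or library preparations. Members at 10 to 60 counts carry counting error on top of that. Near-identical exons make single-gene and single-transcript values less certain than the cluster sums.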
